A study of Mus musculus with 11 samples.

Results

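The genes described here encode the enzymes that prepare and form collagen cross-links: the lysyl oxidases Lox, Loxl1, Loxl2, Loxl3 and Loxl4 and the collagen lysyl hydroxylases Plod1, Plod2 and Plod3. A gene was used where a probe set of the array names it alone, with the brightest such probe set taken over the 11 arrays. This gave 7 of the 8 genes, among 19938 genes measured in the same way. The only probe set of Loxl2 also names another gene, so Loxl2 was not analysed here. Loxl4 had 2 probe sets and the other genes 1 each.

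Lysyl hydroxylases work in the endoplasmic reticulum, where they add hydroxyl groups to lysines of newly made collagen chains with the help of iron, oxygen and vitamin C. Lysyl oxidases are copper-dependent enzymes that act mainly outside the cell, where they turn lysines and hydroxylysines of collagen and elastin into aldehydes that join neighbouring molecules. Cross-links made from hydroxylated lysines are the more stable kind, and cross-linked collagen is a known feature of fibrous tumours, to which diffuse gastric cancer belongs.

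The arrays were of mouse stomach, 1 per sample. The pChePS_GC group (4 samples) was diffuse-type gastric cancer of mice that carried Pdx-1-Cre with the alleles Cdh1F/+, Trp53F/F and also Smad4F/F. The pCP_GC group (3 samples) was diffuse-type gastric cancer of mice with Pdx-1-Cre and the alleles Cdh1F/F and also Trp53F/F. Normal gastric epithelium came from mice without the Cre transgene (NGE, 4 samples). The labels call the tumour samples tissues and the NGE samples epithelium. The kind of material sampled therefore cannot be told apart from tumour status in the comparisons with NGE. Both tumour groups share Cre and the floxed Trp53 alleles. They differ in Smad4, floxed only in pChePS_GC, and in Cdh1, with a floxed and a wild-type allele in pChePS_GC and both alleles floxed in pCP_GC. Pdx1, whose promoter drives Cre, is active in the epithelium of the antrum, duodenum and pancreas, which is where the model deletes the floxed genes. The mice were untreated, and their ages are not given in the labels. Nor do the labels say that each sample is a mouse of its own, and the p-values below then reflect sample-to-sample spread, which may be technical.

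Values are log2 signals as deposited, so a difference of 1 is a 2-fold change. Array medians lay between 7.63 and 7.81. Pairs of arrays correlated across genes at r = 0.962 to 0.978 in pChePS_GC, 0.972 to 0.988 in pCP_GC and 0.990 to 0.994 in NGE. Cdh1 read 8.73 to 11.07 in pChePS_GC and 10.52 to 12.02 in pCP_GC, against 12.93 to 13.02 in NGE. Smad4 read 10.17 to 11.02 in pChePS_GC and 11.41 to 11.49 in pCP_GC, against 11.05 to 11.16 in NGE. Xist, made by female cells, read at most 6.02 in pChePS_GC and 5.81 in pCP_GC, against at least 11.54 in NGE. The labels do not give sex, and it cannot be told apart from tumour status for any gene in the comparisons with NGE. As a background level, the 95th percentile of 1190 odorant and vomeronasal receptor genes was 6.99 in pChePS_GC, 6.86 in pCP_GC and 7.24 in NGE.

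All 7 genes were higher in both kinds of tumour than in normal epithelium. Lox, the founding enzyme of the family, and Plod2, the hydroxylase of the collagen telopeptides, changed most, Loxl1 was next, and Loxl3, Loxl4, Plod1 and Plod3 changed less, by 1.48-fold to 2.4-fold. In pChePS_GC against NGE 7 of 7 genes passed with a higher level, where 18.7% of all genes did, 23.4% passed with a lower level and 42.1% passed in either direction. In pCP_GC against NGE 7 of 7 passed with a higher level, where 20% of all genes did, 31.8% passed with a lower level and 51.8% passed in either direction. A gene passed at a limma adjusted p under 0.05 over all 19938 genes. The median change of the 7 genes was 1.27 in pChePS_GC and 1.25 in pCP_GC, beside medians of -0.0975 and -0.117 over all genes. Each of the 7 genes read higher on every tumour array than on every NGE array, an order that 17.7% of all genes showed for pChePS_GC and 24% for pCP_GC, with 22.9% and 35.6% lower on every tumour array. Higher levels made up 44.5% of the calls over all genes in pChePS_GC and 38.6% in pCP_GC, and with each array centred on its median 22.8% and 21.7%. The 2 comparisons share the NGE arrays, so they are not independent of each other. In bulk tissue, more cells of a type and more RNA per cell cannot be told apart.

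**Figure D1:**
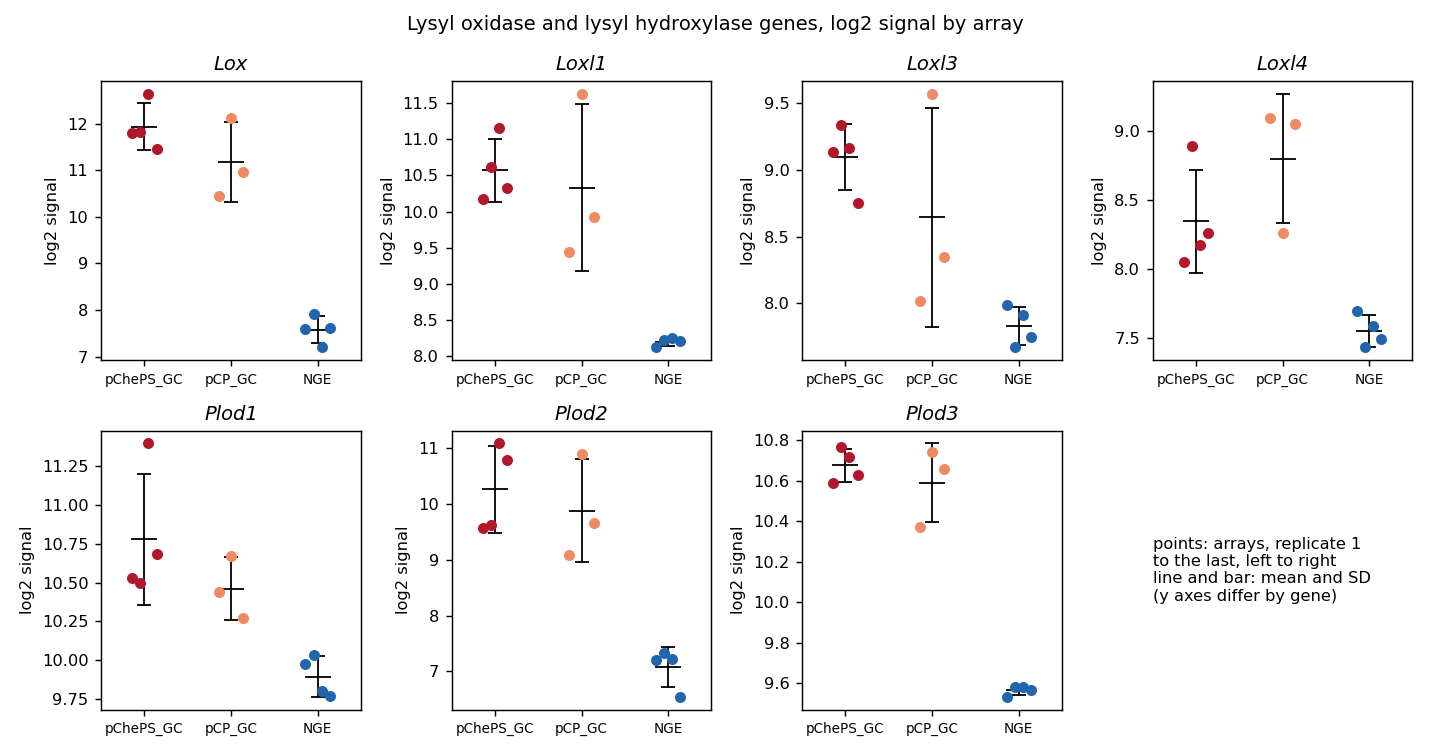
Log2 signal of the 7 genes (y axis, scaled for each gene) in pChePS_GC, pCP_GC and NGE (x axis). Points are arrays, lines and bars the mean and SD. For each gene all tumour points lie above all NGE points, and pCP_GC replicate 2, the middle point of its group, is the highest of its group for Lox, Loxl1, Loxl3, Plod1, Plod2 and Plod3 and the lowest for Loxl4.

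RefSeq promoters (GRCm38.p6) were at hand for 3 of the 7 genes, Plod1, Plod3 and Loxl4, and are shown so that genes that differ in their pattern across the tumours can be compared. The 250 bases before each start are shown, 5′ to 3′ on the gene's strand, with matches in capitals to ACGTG or GCGTG, forms of the core that the hypoxia-inducible factor binds, and to CAGAC, a core that Smad proteins bind, each on either strand.
Plod1, chr4:147936777-147937026, minus strand: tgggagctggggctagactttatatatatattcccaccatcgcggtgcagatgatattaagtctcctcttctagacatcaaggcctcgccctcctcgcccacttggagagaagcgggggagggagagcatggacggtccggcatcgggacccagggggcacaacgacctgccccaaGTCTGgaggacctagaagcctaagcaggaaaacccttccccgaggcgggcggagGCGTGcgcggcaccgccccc
Plod3, chr5:136986769-136987018, plus strand: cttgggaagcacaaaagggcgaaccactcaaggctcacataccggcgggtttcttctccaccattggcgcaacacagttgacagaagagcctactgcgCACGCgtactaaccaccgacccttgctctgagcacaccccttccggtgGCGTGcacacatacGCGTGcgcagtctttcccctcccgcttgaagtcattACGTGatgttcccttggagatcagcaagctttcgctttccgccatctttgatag
Loxl4, chr19:42612807-42613056, minus strand: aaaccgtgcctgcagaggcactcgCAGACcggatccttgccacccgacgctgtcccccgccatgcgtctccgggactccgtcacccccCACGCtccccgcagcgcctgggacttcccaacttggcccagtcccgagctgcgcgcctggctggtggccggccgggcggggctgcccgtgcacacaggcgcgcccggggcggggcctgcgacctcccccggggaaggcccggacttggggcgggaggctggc

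Plod3 held 1 match to ACGTG and 3 to GCGTG and none to CAGAC, and Plod1 and Loxl4 each held 1 match to GCGTG and 1 to CAGAC. Among 32851 promoter windows of the same length 16.6% hold ACGTG, 28.2% hold GCGTG and 42.2% hold CAGAC, so such matches are common and describe the sequence only. The share of G and C was 61.6% in Plod1, 55.6% in Plod3 and 76.0% in Loxl4.

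Lox oxidises lysines of fibrillar collagens and elastin. Its signal was 11.81, 11.82, 12.64 and 11.46 in pChePS_GC replicates 1 to 4, and 10.45, 12.13 and 10.96 in pCP_GC replicates 1 to 3, against 7.58, 7.91, 7.20 and 7.60 in NGE replicates 1 to 4. The lowest tumour array, pCP_GC replicate 1, thus stood more than 2 log2 units above the highest NGE array. Lox rose by 4.36 in pChePS_GC (SE 0.34, limma adjusted p = 6.99e-06), or 20.5-fold. It rose by 3.60 in pCP_GC (SE 0.37, limma adjusted p = 4.90e-05), or 12.2-fold. In NGE, replicate 3 lay under the receptor percentile of 7.24 and the mean of 7.58 not far above it. Where the NGE level of Lox is partly background, these changes are lower bounds.

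Loxl1 is the family member that mouse knockouts tie to the upkeep of elastic fibres. Its signal was 10.18, 10.62, 11.16 and 10.32 in pChePS_GC and 9.44, 11.63 and 9.92 in pCP_GC, against 8.12, 8.22, 8.25 and 8.22 in NGE. The NGE arrays lay close together, while pCP_GC replicate 2 was the highest of all 11 arrays and pCP_GC replicate 1 the lowest tumour array. Loxl1 rose by 2.37 in pChePS_GC (SE 0.39, limma adjusted p = 0.000955) and by 2.13 in pCP_GC (SE 0.42, limma adjusted p = 0.00231). Without pCP_GC replicate 2 the change in pCP_GC was 1.48 for Loxl1 and 3.13 for Lox, and both passed.

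Loxl3, which mice need for normal palate and spine cartilage, changed less and less evenly. It read 9.14, 9.34, 9.16 and 8.75 in pChePS_GC and 8.02, 9.57 and 8.35 in pCP_GC, against 7.99, 7.67, 7.91 and 7.75 in NGE. In pChePS_GC the arrays stood clear of NGE, whereas pCP_GC replicate 1 was barely above the highest NGE array. Loxl3 rose by 1.27 in pChePS_GC (SE 0.28, limma adjusted p = 0.00505) and by 0.81 in pCP_GC (SE 0.30, limma adjusted p = 0.0411). The call of Loxl3 in pCP_GC was lost without pCP_GC replicate 2, where the change was 0.35 with an adjusted p of 0.119, and without each NGE array in turn. It was also lost with arrays centred on their median (adjusted p = 0.0776), with quantile normalization (0.0638) and with only these 2 groups fitted (0.0562), in a range of 0.0117 to 0.119 over all alternatives.

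Loxl4 is a family member with scavenger receptor domains ahead of its oxidase domain. Its brighter probe set read 8.05, 8.89, 8.18 and 8.26 in pChePS_GC and 9.09, 8.26 and 9.05 in pCP_GC, against 7.69, 7.43, 7.59 and 7.49 in NGE. pChePS_GC replicate 2 and pCP_GC replicate 2 each ran against the other arrays of their group, high in the first case and low in the second. Loxl4 rose by 0.79 in pChePS_GC (SE 0.21, limma adjusted p = 0.0138) and by 1.25 in pCP_GC (SE 0.23, limma adjusted p = 0.00159). The dimmer Loxl4 probe set averaged 7.03 (SD 0.45, n = 4) in pChePS_GC and 8.24 (SD 0.66, n = 3) in pCP_GC, against 5.85 ± 0.08 in NGE (SD, n = 4). Its NGE level was under the receptor percentile of 7.24, and in pChePS_GC replicates 1, 3 and 4 read 6.79, 6.79 and 6.82, under that group's percentile of 6.99. Only pCP_GC stood clear of background with this probe set, 2.39 above NGE, which is a lower bound where the NGE level is background.

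Among the hydroxylases, Plod2 adds the telopeptide hydroxyl groups that lead to stable cross-links. It read 9.57, 9.63, 11.09 and 10.78 in pChePS_GC and 9.09, 10.90 and 9.66 in pCP_GC, against 7.21, 7.33, 7.22 and 6.54 in NGE. The pChePS_GC arrays fell into a lower pair, replicates 1 and 2, and a higher pair, replicates 3 and 4. Plod2 rose by 3.19 in pChePS_GC (SE 0.43, limma adjusted p = 0.000259), or 9.13-fold, and by 2.81 in pCP_GC (SE 0.46, limma adjusted p = 0.00093). Its NGE mean of 7.08 lay under the receptor percentile of 7.24, so where that is background these changes of Plod2 are lower bounds.

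Plod1, which hydroxylates lysines of the collagen helix, read 10.53, 10.50, 11.39 and 10.68 in pChePS_GC and 10.44, 10.67 and 10.27 in pCP_GC, against 9.98, 10.04, 9.80 and 9.77 in NGE. Only pChePS_GC replicate 3 lay more than 1 log2 unit above every NGE array. Plod1 rose by 0.88 in pChePS_GC (SE 0.18, limma adjusted p = 0.00397) and by 0.56 in pCP_GC (SE 0.20, limma adjusted p = 0.0353). The call of Plod1 in pCP_GC was lost without pCP_GC replicate 1 (adjusted p = 0.0728) or replicate 2 (adjusted p = 0.125), without NGE replicates 1, 3 or 4 (adjusted p = 0.0547, 0.0785 and 0.081), and with each array centred on its median (adjusted p = 0.132) or quantile normalized, in a range of 0.00339 to 0.17 over the alternatives.

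Plod3, which besides hydroxylating lysines also attaches sugars to them, varied least. It read 10.59, 10.77, 10.72 and 10.63 in pChePS_GC and 10.37, 10.74 and 10.66 in pCP_GC, against 9.53, 9.58, 9.58 and 9.57 in NGE. The SD of Plod3 was 0.08 in pChePS_GC, 0.19 in pCP_GC and 0.02 in NGE. It rose by 1.11 in pChePS_GC (SE 0.09, limma adjusted p = 8.82e-06) and by 1.03 in pCP_GC (SE 0.10, limma adjusted p = 3.19e-05).

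**Figure D2:**
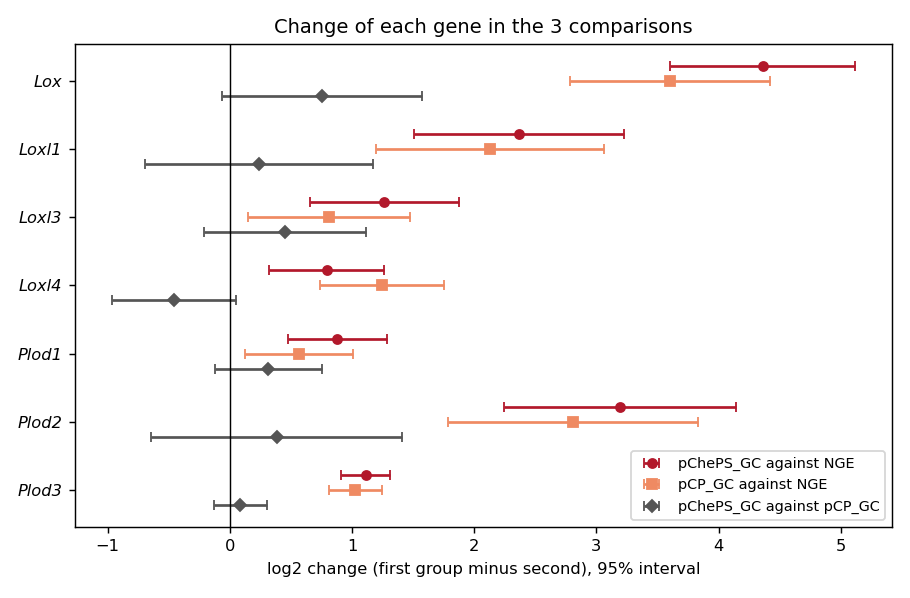
Log2 change of each gene (x axis, with 95% intervals of the limma fit) in pChePS_GC against NGE, pCP_GC against NGE and pChePS_GC against pCP_GC. The intervals of both comparisons with NGE lie above 0 for all 7 genes, and those of the comparison between tumour groups include 0.

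Between the tumour groups 0 of the 7 genes passed and 0 had an unadjusted p under 0.05 (limma), as 16.5% of all genes did. Of all genes 0.366% passed, 0.115% with a higher and 0.251% with a lower level in pChePS_GC. The arrays of the groups overlapped for each of the 7 genes, where 9.5% of all genes were higher and 4.4% lower in pChePS_GC without overlap. Lox was 0.76 higher in pChePS_GC than in pCP_GC (95% interval -0.06 to 1.58, limma adjusted p = 0.333), and Loxl4 had a lower mean in pChePS_GC, at -0.45 (95% interval -0.96 to 0.05, limma adjusted p = 0.344). The differences of the other genes were 0.24 for Loxl1 (interval -0.69 to 1.17), 0.45 for Loxl3 (-0.21 to 1.11), 0.32 for Plod1 (-0.12 to 0.76), 0.38 for Plod2 (-0.64 to 1.41) and 0.09 for Plod3 (-0.13 to 0.30). The intervals of Lox, Loxl1, Loxl3 and Plod2 therefore still hold differences of 2-fold, while that of Plod3 reaches no further than 0.30. That of Loxl4 is for its brighter probe set and does not bound the gene. With the mean of its probe sets Loxl4 was -0.84 (limma adjusted p = 0.175). Its dimmer probe set averaged 7.03 in pChePS_GC, partly under background, and 8.24 in pCP_GC. Without pCP_GC replicate 2, Loxl3 was 0.91 higher in pChePS_GC and passed (limma adjusted p = 0.0437); over the alternatives its adjusted p went up to 0.868. The size and in part the sign of these differences rested on single pCP_GC arrays: Lox was 0.39 without pCP_GC replicate 1 and 1.23 without replicate 2, and without replicate 1 Loxl1 was -0.21, Plod2 -0.01 and Plod3 -0.02, none of which passed.

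Within the tumour groups the genes did not all vary together. After the mean of each tumour group was subtracted, Lox and Loxl1 correlated at r = 0.952 over the 7 tumour arrays, Loxl1 and Loxl3 at 0.905, and Loxl1 and Plod2 at 0.804. Over the 15 pairs without Loxl4, r ran from 0.201 (Plod1 and Plod3) to 0.952, and over the 6 pairs with Loxl4 it was negative throughout, from -0.665 with Plod2 to -0.193 with Plod3. These values describe 7 arrays that share their groups and their normalization, and pCP_GC replicate 2 has the largest deviation of Lox, Loxl1, Loxl3 and Plod2. Of 129 genes of the pathway and marker lists described below, the closest to Lox were Ctsk, a collagen-degrading cathepsin (r = 0.968), and the fibroblast surface protein Thy1 (r = 0.963). The closest to Loxl1 were Fn1, or fibronectin (r = 0.988), and Thy1 (r = 0.984), and the closest to Plod2 were Col5a1 (r = 0.985) and Mmp2, a gelatinase (r = 0.982). Loxl3 was closest to Ltbp2 (r = 0.964) and the collagen uptake receptor Mrc2 (r = 0.959), and Plod1 to the receptors Pdgfra of fibroblasts (r = 0.965) and Tie1 of endothelium (r = 0.953). Plod3 had no partner above r = 0.823 (Mfap4), with C1qb next (r = 0.818). Loxl4 was closest to the basement membrane collagens Col4a6 (r = 0.966) and Col4a5 (r = 0.910), both of which did not pass in either comparison with NGE. These partners are the 2 highest of 129 for each gene. By rank some were looser: Spearman rho of the named pairs ran from 0.679 (Plod3 and Mfap4) to 1 (Loxl4 and Col4a6). It was 0.786 for Lox and Ctsk but 0.964 for Lox and Thy1.

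**Figure D3:**
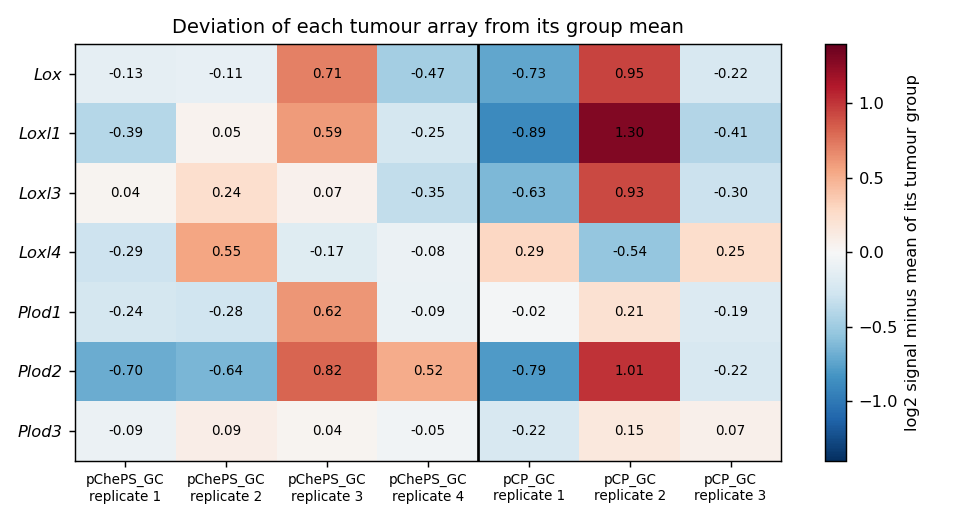
Log2 signal of each gene (rows) on each tumour array (columns) minus the mean of its tumour group, written in each cell and shaded from blue (below the mean) to red (above). In pCP_GC replicate 2, Lox (0.95), Loxl1 (1.30), Loxl3 (0.93) and Plod2 (1.01) lie high and Loxl4 lies low (-0.54). In pChePS_GC replicate 3, Lox (0.71), Loxl1 (0.59), Plod1 (0.62) and Plod2 (0.82) lie high.

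Most markers of stromal cells were, like these genes, higher in both tumour groups than in NGE. Across the 7 tumour arrays, with group means subtracted, Loxl4 did not follow the mean of the fibroblast markers (r = -0.393). The other genes had r from 0.629 (Loxl3) to 0.894 (Plod2) with it. These values are not particular to fibroblasts. Loxl3 and Loxl1 had a higher r with the parietal cell marker mean (0.93 and 0.893). Plod1 had a higher r with the endothelium mean (0.946), and Plod3 with the macrophage mean (0.727). For Lox (0.811) and Plod2 the fibroblast mean gave the highest r, and for Loxl4 the epithelium mean did (0.818). The mean log2 signal of 8 fibroblast markers ran from 10.26 to 11.52 in pChePS_GC and from 10.79 to 11.89 in pCP_GC, against 7.64 to 7.85 in NGE, and 7 of the 8 were higher in pChePS_GC and all 8 in pCP_GC. All 7 smooth muscle markers, all 7 endothelium markers and all 7 macrophage markers were higher in each tumour group. The smooth muscle mean ran from 8.98 to 11.75 in pChePS_GC and 10.47 to 11.47 in pCP_GC, against 7.66 to 7.71 in NGE, and the endothelium mean from 9.54 to 10.59 in pChePS_GC and 9.44 to 9.96 in pCP_GC, against 7.16 to 7.32 in NGE. The macrophage mean ran from 10.71 to 11.36 in pChePS_GC and 10.30 to 11.53 in pCP_GC, against 7.42 to 7.71 in NGE. The fibroblast mean was highest in pCP_GC replicate 2 (11.89) and pChePS_GC replicate 3 (11.52), and the endothelium mean was highest in pChePS_GC replicate 3 (10.59). The 7 epithelium markers averaged 12.45 to 12.82 in pChePS_GC and 12.52 to 13.05 in pCP_GC, against 13.04 to 13.10 in NGE, with 2 higher and 2 lower in pChePS_GC and 1 higher and 2 lower in pCP_GC. One of the 7 is Cdh1, which the models flox, and the other 6 averaged 13.07 to 13.11 in pChePS_GC and 12.76 to 13.22 in pCP_GC, against 13.06 to 13.11 in NGE, so that the lower mean over all 7 in pChePS_GC was that of Cdh1. The 5 parietal cell markers, all lower in both tumour groups, averaged 7.31 to 7.62 in pChePS_GC and 6.97 to 8.82 in pCP_GC, with the high value in pCP_GC replicate 2, against 11.16 to 11.40 in NGE. Of 5 mesothelium markers only Msln rose in each tumour group (4.80 and 4.54), and Wt1 fell by 0.39 in pCP_GC; the list averaged 9.59 to 10.27 in pChePS_GC and 9.40 to 9.65 in pCP_GC, against 8.61 to 8.94 in NGE. Of 5 adipocyte markers none passed in pChePS_GC, and in pCP_GC Cidec fell by 1.44 and Plin1 by 0.43; the list averaged 7.59 to 8.85 in pChePS_GC and 7.42 to 7.56 in pCP_GC, against 7.89 to 8.15 in NGE. The part of stromal cell content in the rise of the 7 genes was not tested.

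The substrates of the enzymes moved unevenly. Beside the counts of this and the later lists, 18.7% of all genes rose and 23.4% fell in pChePS_GC. In pCP_GC 20% of all genes rose and 31.8% fell. Of 11 fibrillar collagen genes 4 rose and none fell in pChePS_GC, namely Col1a1 (3.36), Col1a2 (3.35), Col3a1 (1.91) and Col5a2 (1.83), with a median of 0.34 over the list. In pCP_GC the same 4 genes rose, Col1a1 by 3.07, Col1a2 by 3.02, Col3a1 by 1.93 and Col5a2 by 1.51, and 3 fell, Col24a1, Col2a1 and Col11a2 (-0.50, -0.49 and -0.35), with a median of -0.19. Of 6 collagen IV genes of basement membranes, Col4a1 and Col4a2 rose in pChePS_GC (2.18 and 2.53) and in pCP_GC (1.73 and 1.92), while Col4a3 and Col4a4 fell in pChePS_GC (-0.54 and -0.45) and in pCP_GC (-0.71 and -0.64), and the list's medians were 0.09 and -0.05. Of 13 genes of elastic fibres and their scaffold 9 rose and 0 fell in each tumour group, led in pChePS_GC by Mfap5 (3.96) and Fbln2 (3.00), microfibril and fibulin proteins, and Ltbp2 (2.82), and in pCP_GC by Ltbp1 (2.53), Mfap5 (2.48) and Ltbp4 (2.09). The median of that list was 1.72 in pChePS_GC and 1.32 in pCP_GC. Eln, or elastin itself, rose by 1.72 in pChePS_GC (limma adjusted p = 0.018), while in pCP_GC it differed by 0.64 without passing (adjusted p = 0.327).

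Each enzyme was then set against the mean of Col1a1, Col1a2 and Col3a1 on the same array, a difference that a shift of the whole array leaves as it is. Only whether a gene changed by more or less than these collagens can be read from it. The collagens rose by 1.91 to 3.36 in pChePS_GC and by 1.93 to 3.07 in pCP_GC. Over all genes the upper quartile of the change was 0.276 in pChePS_GC and 0.317 in pCP_GC. Most genes thus changed by less than these collagens, so a lower difference is not particular to a gene. Lox minus the collagens averaged 0.26 (SD 0.36, n = 4) in pChePS_GC and -0.30 (SD 0.20, n = 3) in pCP_GC, against -1.23 ± 0.36 in NGE (SD, n = 4), so that Lox gained on the collagens by 1.49 in pChePS_GC and by 0.93 in pCP_GC without overlap of arrays. For Plod2 the measured differences to NGE were 0.32 in pChePS_GC and 0.14 in pCP_GC, with overlapping arrays, and where its NGE level is background they too are lower bounds. Loxl3 (-1.61 and -1.86), Plod1 (-1.99 and -2.11) and Plod3 (-1.76 and -1.65) changed by less than the collagens in pChePS_GC and pCP_GC, without overlap. So did the brighter probe set of Loxl4 (-2.08 and -1.42), also without overlap, though its NGE mean of 7.55 lay near background. Its dimmer probe set rose by 1.18 in pChePS_GC and 2.39 in pCP_GC, lower bounds where NGE is background. The latter lies among the rises of the collagens, so for that probe set a smaller change in pCP_GC is not shown. Loxl1 was -0.51 in pChePS_GC, without overlap, and -0.54 in pCP_GC, with overlap. The exact two-sided permutation p was 0.0286, the smallest possible, for 6 genes in pChePS_GC and for 4 in pCP_GC, and adjusted over 21 tests it was 0.06, so no difference passed the correction. Between the tumour groups the largest difference was that of Loxl4, -0.66 (exact permutation p = 0.343, adjusted p = 0.48), and the smallest p that of Lox, which was 0.55 higher in pChePS_GC (exact permutation p = 0.0857, adjusted p = 0.15). Against Col3a1 alone the difference of Loxl1 in pChePS_GC turned to 0.45, since Col3a1 itself rose by less than Col1a1 and Col1a2. Against Col3a1 alone Lox gained by 2.45 in pChePS_GC and 1.68 in pCP_GC and Plod2 by 1.28 and 0.88. These differences passed (exact permutation test, adjusted p = 0.0462), as did that of Lox between the tumour groups, 0.77 higher in pChePS_GC. The turned difference of Loxl1 in pChePS_GC passed in the same way. No exact p can fall under 0.0286 here, and at that floor the adjusted p depends only on how many of the 21 tests reach it. Passing therefore ranks none of these genes above another.

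**Figure D4:**
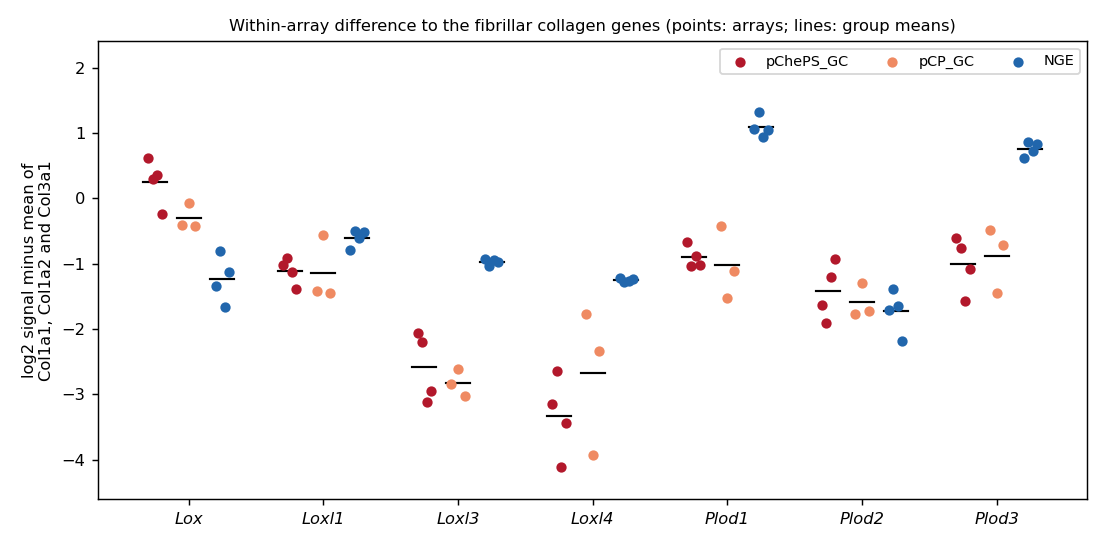
Log2 signal of each gene minus the mean of Col1a1, Col1a2 and Col3a1 on the same array (y axis), for pChePS_GC, pCP_GC and NGE (points are arrays, lines group means); groups are to be compared within a gene. Lox lies higher in both tumour groups than in NGE, Loxl3, Loxl4 (brighter probe set only), Plod1 and Plod3 lie lower, and Plod2 overlaps.

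Genes that activate lysyl oxidases or bring them to their substrates rose in part. Of 13 such genes 5 rose and 2 fell in pChePS_GC, and 6 rose and 3 fell in pCP_GC, with medians of 1.00 and 1.42. The largest changes were those of the matrix proteins Fn1 (4.69 in pChePS_GC and 4.39 in pCP_GC) and Postn, or periostin (4.15 and 4.49), and of Pcolce, an enhancer of procollagen cleavage (2.76 and 2.34). Bmp1, the protease that frees active Lox from its propeptide, rose by 2.59 in pChePS_GC and by 2.11 in pCP_GC. Slc31a1, which imports copper, fell by 0.89 in pChePS_GC and by 0.50 in pCP_GC. Atp7a, which loads copper onto secreted enzymes, fell by 0.53 and by 0.44, with overlapping arrays in pChePS_GC. Atox1, another copper gene of the list, did not pass in either (0.16 and -0.07). The falls in this list are no more frequent than over all genes, where 23.4% fell in pChePS_GC and 31.8% in pCP_GC.

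The prolyl hydroxylation list, of enzymes that modify the neighbouring residue class of collagen, was divided. Of 10 genes 5 rose and 3 fell in pChePS_GC, and 6 rose and 3 fell in pCP_GC, with medians of 0.86 and 0.69. P3h3 (1.45), P3h2 (1.43) and Crtap (1.31) led in pChePS_GC, and P3h2 (2.10), Crtap (1.60) and P4ha3 (1.46) in pCP_GC. P4ha2, a catalytic subunit of prolyl 4-hydroxylase, fell by 0.63 in pChePS_GC and by 1.00 in pCP_GC, and P3h4, which partners Plod1, fell by 0.89 and by 0.79. Of 9 genes for hydroxylysine glycosylation and collagen folding 3 rose and 1 fell in pChePS_GC, where Mia3, needed to export procollagen, fell by 1.00, and 4 rose and 0 fell in pCP_GC, with medians of 0.29 and 0.44. The largest rises were those of Fkbp7, an isomerase of the endoplasmic reticulum (2.69 and 2.71), Colgalt1, the galactosyltransferase of hydroxylysine (1.68 and 1.89), and Fkbp14 (1.28 and 1.33). Of 7 genes of collagen uptake and breakdown 6 rose in pChePS_GC and 5 in pCP_GC and none fell, with medians of 2.13 and 2.79, and with Mmp2 at 4.35 and 4.12 and Mmp14 at 3.58 and 3.11, joined in pChePS_GC by Ctsk (2.83) and in pCP_GC by Mmp13 (3.64).

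Lox, Plod2 and P4ha1 are known targets of the hypoxia-inducible factor. Of 12 other targets of that factor 2 rose and 1 fell in pChePS_GC, with a median of 0.08, and 0 rose and 4 fell in pCP_GC, with a median of -0.50. Over all genes 18.7% rose and 23.4% fell in pChePS_GC, and 20% rose and 31.8% fell in pCP_GC. The 2 that rose in pChePS_GC and the 4 that fell in pCP_GC are near those shares. The 4 that fell in pCP_GC were Car9, Bnip3, Ndrg1 and Slc2a1 (-2.59, -2.27, -1.16 and -0.68). In pChePS_GC Pdk1 and Pgk1, enzymes of glucose metabolism, rose by 0.60 and 0.30, and Car9, a carbonic anhydrase that gastric epithelium also makes, fell by 3.32. P4ha1 rose by 0.93 in pChePS_GC and by 0.59 in pCP_GC.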

How the data were processed

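Total RNA of 11 mouse stomach samples carried a biotin label and was run on Affymetrix arrays, per the labels. Deposited values are 1 log2 signal per probe set, a unit read from their range of 2.88 to 14.6. The submitters' processing notes name Affymetrix Expression Console, with neither a version nor an algorithm stated there. How that software treats background affects dim probe sets most.

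Of 35556 probe sets 21789 named 1 gene symbol, 1621 several and 12146 none. Group means over all 11 arrays were compared in limma (version 3.58.1, R version 4.3.3; lmFit and eBayes) with two-sided p-values, adjusted after Benjamini and Hochberg across 19938 genes; the code was tested on simulated data. Within-array differences were tested by exact permutation in Python 3.11.15. The number of arrays limits the precision.

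The genes and lists were chosen with earlier results of these data known. Named are the members, per pathway list and comparison up to 3 genes with the largest change among those that passed, and the 2 list genes closest to each member. Genes outside that rule, such as Bmp1, Slc31a1, Atp7a, Atox1, Eln, P4ha1, P4ha2, P3h4 and marker genes, were named after their values were seen. Deviations of same-numbered arrays did not all correlate above 0.1 (r = -0.155 to 0.156), so no pairing was used. Alternatives changed the normalization, probe set summary, filter on dim genes, groups fitted, variance prior, array weights, replicate block and arrays used.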

Additional observations from a re-analysis of the deposited data

Results flagged for a closer look

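Of 28 groups of 4 arrays examined, over the 7 genes and their differences to the collagens, 1 held an array far from the others, where chance gives about 1 in 20. Plod2 read 6.54 in NGE replicate 4, against 7.21 to 7.33 in the other NGE arrays, and this level lies under the receptor percentile of 7.24 as do 2 of the other 3.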

How the results depend on the processing

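All 7 genes kept their direction against NGE under every alternative run, and in pChePS_GC all that were tested kept their call. In pCP_GC against NGE the count was 5 with arrays centred on their median, with quantile normalization and with the replicate block, where Loxl3 and Plod1 were lost, 6 with only the 2 groups fitted, and 5 to 7 with each array left out. Without the dimmest 50% of genes Loxl4 was not tested, and 6 of 6 passed in both comparisons. Between the tumour groups 0 to 1 gene passed with an array left out, the 1 being Loxl3 without pCP_GC replicate 2. Over all genes, 8386, 10337 and 73 passed in pChePS_GC against NGE, pCP_GC against NGE and pChePS_GC against pCP_GC. Without the dimmest 50% of genes, with fewer genes tested, these counts were 4881, 4611 and 31. For the third they were 0 with only the 2 groups fitted, 0 with the replicate block, 188 with array weights and 26 to 154 with an array left out; for the first 6107 to 8773 and for the second 8344 to 10627. Centring on the median moved the median of all genes by -0.17 in pChePS_GC and -0.21 in pCP_GC against NGE, and the share of calls that were higher was 22.8% and 21.7%, against 44.5% and 38.6% as deposited. The labels give the replicate numbers no meaning, and whether they pair arrays was not settled: 8 of 10 same-numbered pairs had r above 0 but not all above 0.1, and 10 of 20 comparisons of an array with another group were closest at its own number, against 5.5 if numbers mean nothing. Loxl1 minus the collagens, pChePS_GC against NGE, reversed to 0.45 with Col3a1 alone (adjusted p = 0.0462), and was -0.36 with Pdgfra, Pdgfrb and Thy1.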
